A study of Mus musculus with 24 samples.

Results

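The 10 genes described here encode endoplasmic reticulum (ER) chaperones and targets of the transcription factor XBP1, and were chosen by name from the count table: *Hspa5*, *Hsp90b1*, *Calr*, *Pdia4*, *Sdf2l1*, *Manf*, *Creld2*, *Dnajb9*, *Herpud1* and *Xbp1*. They are 10 of 49315 genes in the table, and all 10 passed the filter on low counts that left 16070 genes for testing. RNA sequencing was performed on MS03 cells, a single immortalized mouse Schwann cell line in which Cre had deleted *Nf2* from a floxed genotype, so every library, controls included, was *Nf2*-/-. The cells were grown for 24 hours in DMSO or in 1 of 7 drugs against focal adhesion kinase (FAK), with 3 replicates in each of the 8 groups. Defactinib, VS-4718, GSK2256098 and IN10018, which inhibit the kinase, were each used at 1 μM. The 3 PROTACs tether FAK to a ubiquitin ligase so that the protein is degraded, and the doses were 1 μM for PROTAC FAK degrader 1 and 0.1 μM for GSK215 and BSJ-04-0146. As one cell line was used, the p-values measure the spread between replicates of this line only.

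Proteins that enter the secretory pathway fold in the ER with the help of chaperones, lectins and disulfide isomerases. When unfolded proteins accumulate there, sensors in the ER membrane, namely IRE1, ATF6 and PERK, start the unfolded protein response. IRE1 splices the *Xbp1* messenger RNA so that it encodes an active transcription factor, ATF6 is cleaved into one, and PERK slows translation while favouring that of ATF4. XBP1 and ATF6 act on chaperone and degradation genes, and ATF4 on amino acid, redox and stress genes, with some promoters open to more than one branch. Schwann cells, which make large amounts of myelin membrane and basement membrane protein, depend on this machinery.

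Library totals ran from 14472462 to 27449516 counts, with a median of 22606532.5. The lowest totals were those of GSK215 (from 14472462 to 19331704) and BSJ-04-0146 (from 16112245 to 17794597). Between replicates of a group, the chi-square per degree of freedom of the counts ran from 1.74 to 8.85. VS-4718 had no close pair of replicates (4.63, 4.24 and 6.43). Replicate 1 of GSK2256098 stood apart from its group (6.52 and 8.85, against 1.93 between the other 2), as did replicate 2 of IN10018 (5.82 and 6.49, against 1.91) and, by less, replicate 3 of PROTAC FAK degrader 1 (6.63 and 4.82, against 2.71). No member call against DMSO was lost when any 1 of these 3 libraries was left out. The differences of *Herpud1* and *Hspa5* in GSK2256098 were then -0.57 and -0.24 (-0.59 and -0.22 with all libraries), and those of *Herpud1* and *Xbp1* in IN10018 were 0.28 and 0.31 (0.27 and 0.31). In PROTAC FAK degrader 1 they were 1.35 for *Herpud1*, 0.93 for *Xbp1*, 0.67 for *Hspa5* and -0.63 for *Calr* (1.31, 0.92, 0.64 and -0.65). The Schwann cell markers *Sox10*, *Mbp* and *Foxd3* were detected in every library at 11.3 CPM (counts scaled to library size) or more, while *S100b* and *Egr2* stayed under 1 CPM throughout, so the labelled cell type was met by part of its marker list. The summed mean level of 9 Schwann markers moved with treatment, from 73.5 CPM in DMSO to 310.2 CPM in GSK215, 289 CPM in BSJ-04-0146 and 155 CPM in VS-4718, against 84.7 CPM in PROTAC FAK degrader 1, and its part in the results below was not tested. In PROTAC FAK degrader 1 the sum joined lower means of *Sox10* (12.2 CPM, against 20.1 in DMSO) and *Ngfr* (4.92 against 10.4) with higher means of *Mbp* (30.1 against 15.4) and *Foxd3* (26.96 against 19.0). A macrophage list summed to between 3.53 and 4.20 CPM in DMSO and to between 10.8 and 11.8 CPM in PROTAC FAK degrader 1, where the defining markers *Ptprc* and *Adgre1* had at most 1 count in any library, and *Cd68* made up nearly all of it (3.35 CPM in DMSO and 10.9 in PROTAC FAK degrader 1). A fibroblast list, nearly all *Col1a1*, summed to between 395 and 414 CPM in DMSO, between 290.4 and 297 CPM in PROTAC FAK degrader 1 and between 459 and 515 CPM in VS-4718, with *Lum* at 0 throughout. The part of these lists in the results was not tested. *Ptk2*, which encodes FAK, lay between 77.3 and 101.6 CPM in all libraries, and the drugs act on its protein. Its transcript was lower than in DMSO past the threshold in 5 of the 7 drugs, namely GSK215 (-0.29 on the log2 scale), BSJ-04-0146 (-0.26), VS-4718 (-0.18), defactinib (-0.14) and GSK2256098 (-0.13), and not in IN10018 (-0.07) or PROTAC FAK degrader 1 (0.03); its part in the results was not tested. *Nf2* transcript was counted at 154.8 to 192.9 CPM in all libraries, and a count per gene cannot show whether the floxed exons are missing. In bulk RNA, a change in the number of expressing cells and in RNA per cell cannot be told apart.

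The promoters of these genes are shown because ER stress elements were first defined in this family. Windows of 300 bases, from 250 before to 50 after a RefSeq start site (GRCm38.p6), were found for 9 of the 10 genes, and *Manf* had none in the table used. The motifs were searched as exact letters on either strand. The ER stress element (ERSE), which ATF6 and XBP1 recognise together with the factor NF-Y, was searched as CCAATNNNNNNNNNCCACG. The related ERSE-II was searched as ATTGGNCCACG, and the core of the unfolded protein response element (UPRE) as TGACGTG. The CCACG letters close both ERSE forms, and the motifs were counted separately even where they share letters. The 250 bases upstream of the start site are given 5′ to 3′ for *Hspa5* (chr2:34771840-34772089, plus strand), *Hsp90b1* (chr10:86705445-86705694, minus strand), *Calr* (chr8:84846932-84847181, minus strand), *Herpud1* (chr8:94386179-94386428, plus strand) and *Xbp1* (chr11:5520391-5520640, plus strand), the genes with the clearest responses or the most chaperone transcript, with the fixed letters of each match in capitals.
Hspa5: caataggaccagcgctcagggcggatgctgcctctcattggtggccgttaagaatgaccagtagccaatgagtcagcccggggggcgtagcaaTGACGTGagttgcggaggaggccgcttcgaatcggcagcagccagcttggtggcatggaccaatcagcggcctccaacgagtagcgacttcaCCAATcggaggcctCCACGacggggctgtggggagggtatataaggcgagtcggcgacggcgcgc
Hsp90b1: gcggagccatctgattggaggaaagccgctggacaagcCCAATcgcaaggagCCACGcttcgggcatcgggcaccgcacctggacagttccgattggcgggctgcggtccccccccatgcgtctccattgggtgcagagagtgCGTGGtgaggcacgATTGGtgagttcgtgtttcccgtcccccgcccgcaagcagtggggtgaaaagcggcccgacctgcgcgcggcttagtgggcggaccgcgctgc
Calr: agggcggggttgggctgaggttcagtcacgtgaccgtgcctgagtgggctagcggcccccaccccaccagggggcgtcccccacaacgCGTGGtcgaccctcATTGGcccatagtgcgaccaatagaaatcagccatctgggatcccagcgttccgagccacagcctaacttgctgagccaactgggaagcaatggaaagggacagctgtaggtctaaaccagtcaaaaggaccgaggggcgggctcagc
Herpud1: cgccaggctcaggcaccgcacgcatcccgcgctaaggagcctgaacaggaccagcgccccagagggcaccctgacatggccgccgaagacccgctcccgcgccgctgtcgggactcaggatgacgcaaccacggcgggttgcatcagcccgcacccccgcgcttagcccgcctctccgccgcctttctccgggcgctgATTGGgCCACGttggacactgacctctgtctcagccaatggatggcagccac
Xbp1: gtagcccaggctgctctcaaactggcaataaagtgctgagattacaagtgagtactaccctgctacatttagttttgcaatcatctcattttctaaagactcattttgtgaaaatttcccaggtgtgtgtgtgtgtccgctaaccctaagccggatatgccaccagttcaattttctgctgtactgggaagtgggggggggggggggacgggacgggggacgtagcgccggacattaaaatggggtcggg

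An ERSE stood in the windows of *Hspa5*, *Hsp90b1*, *Calr* and *Creld2*, 4 of the 9 genes, against 0.119% of 32851 mouse windows. *Hsp90b1* held 2 of them, at -212 on the plus strand and at -107 on the minus strand relative to the gene. The *Hspa5* element, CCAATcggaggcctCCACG, began 65 bases before the RefSeq start site. In the GENCODE M21 annotation, *Hspa5* begins at chr2:34771970 and the minus-strand *Hsp90b1* at chr10:86705509. Part of each of these 2 printed stretches, with the *Hspa5* ERSE, thus lies inside the gene as annotated there. *Calr* carried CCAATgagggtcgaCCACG and *Creld2* carried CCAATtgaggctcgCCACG, each on the minus strand. *Herpud1* was the one member with an ERSE-II, ATTGGgCCACG at -52, a motif in 0.0365% of all windows. A UPRE core stood only in the *Hspa5* window among the 9 genes, at -157, and in 2.01% of all windows. The windows of *Pdia4*, *Sdf2l1*, *Dnajb9* and *Xbp1* held none of these letters, which says nothing of elements elsewhere or of variant sequence.

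**Figure D1:**
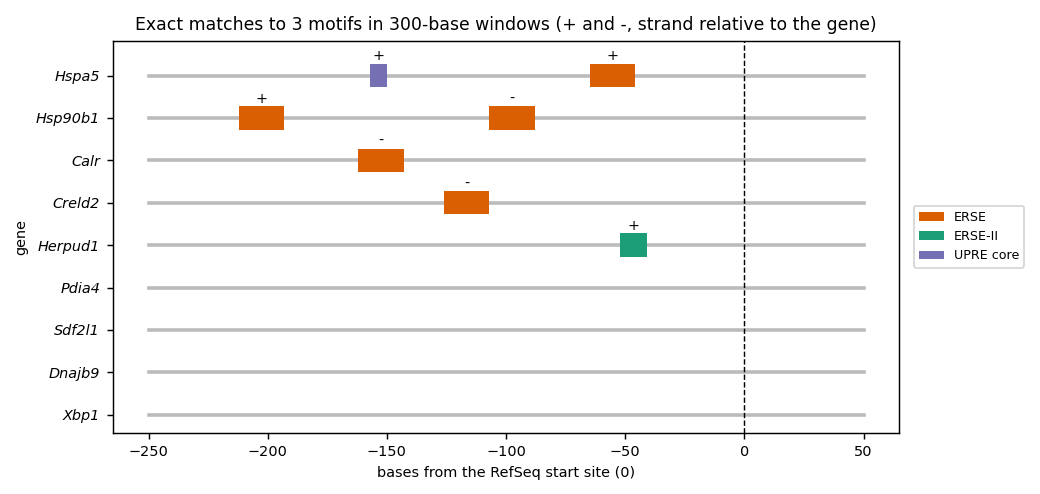
Exact matches to ERSE, ERSE-II and the UPRE core in the 300-base windows of 9 genes, plotted by distance in bases from the RefSeq start site, with the strand of each match relative to the gene. Matches lie in 5 of the 9 windows, and *Herpud1* alone carries ERSE-II.

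Levels between genes were compared as CPM per kilobase of merged exon (GENCODE M21, GRCm38). In DMSO, *Calr*, *Hsp90b1* and *Hspa5* were the most abundant, at 369 ± 10.8, 357 ± 6.39 and 323 ± 6.72 CPM per kilobase (SD, n = 3). *Pdia4*, *Sdf2l1*, *Creld2* and *Manf* formed a middle class between 42.1 and 88.5 CPM per kilobase. *Herpud1*, *Xbp1* and *Dnajb9* were the least abundant, at 16.1, 10.9 and 4.37 CPM per kilobase. In PROTAC FAK degrader 1 the order of the leading genes was different, with *Hspa5* at 504 ± 14.9, *Hsp90b1* at 361 ± 9.15 and *Calr* at 235 ± 7.27 CPM per kilobase. All values that follow are CPM of one gene across libraries, scaled by trimmed mean of M-values (TMM) normalization, and all differences are on the log2 scale.

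**Figure D2:**
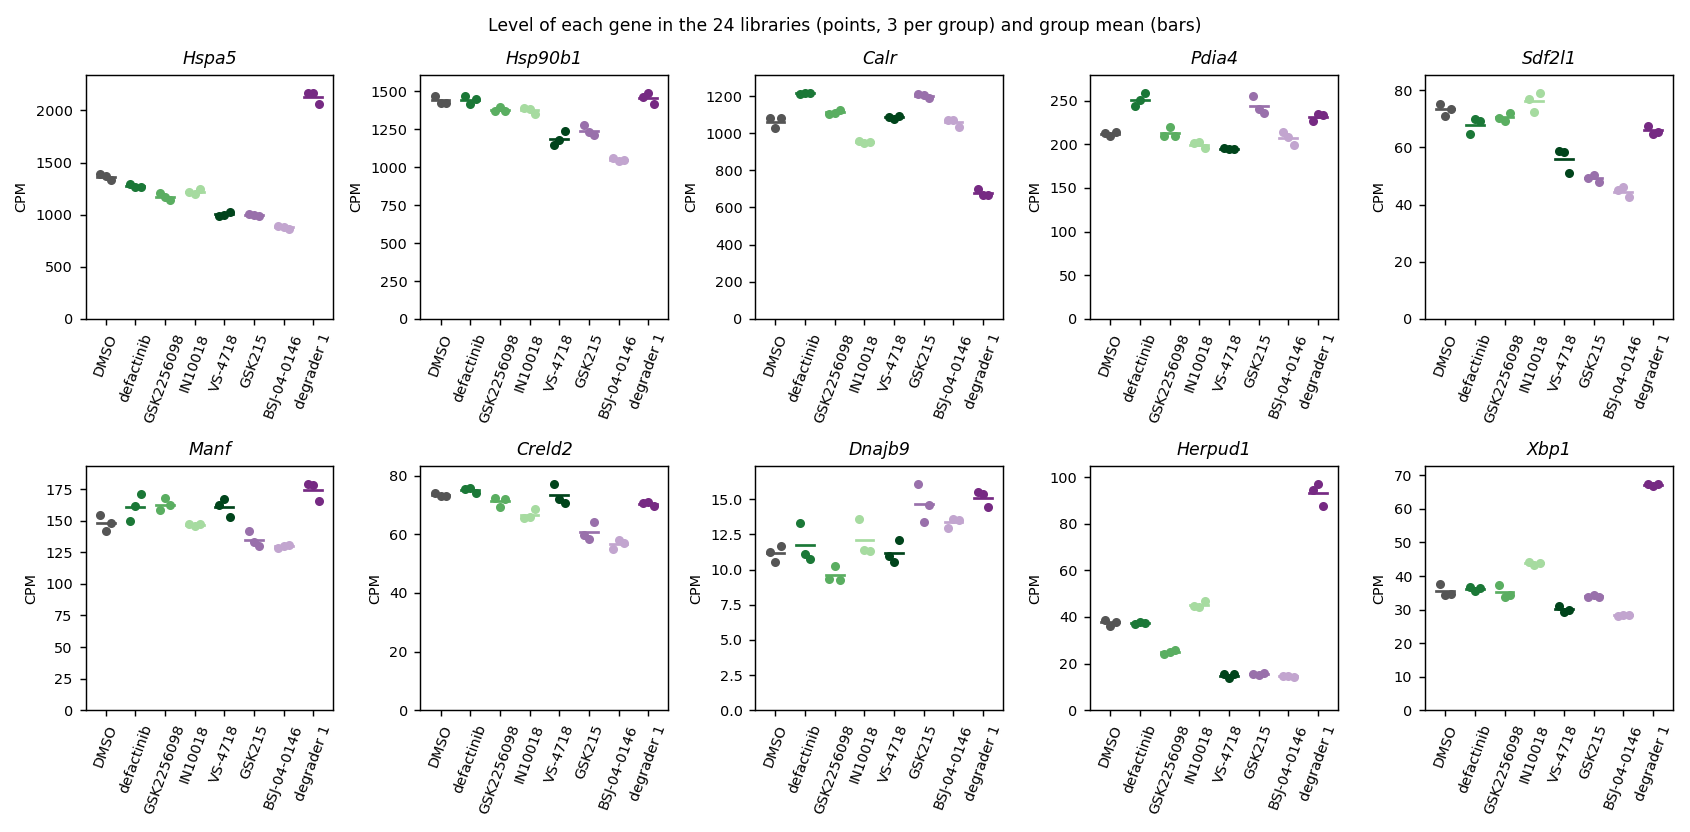
Level of each of the 10 genes in CPM (vertical axes, from 0) in the 24 libraries, with 3 points per group and the group mean as a bar; degrader 1 is PROTAC FAK degrader 1. *Herpud1*, *Xbp1* and *Hspa5* stand highest in PROTAC FAK degrader 1 while *Calr* stands lowest there.

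*Hspa5* encodes BiP, the Hsp70 chaperone of the ER lumen that also holds the stress sensors inactive (chr2:34771970-34777547, GRCm38, plus strand). It rose only in PROTAC FAK degrader 1 and fell in each of the other 6 drugs. The DMSO libraries read 1388, 1374 and 1333 CPM, and those of PROTAC FAK degrader 1 read 2170, 2166.2 and 2059 CPM. The lowest libraries were those of BSJ-04-0146 at 892, 885 and 858 CPM, followed by GSK215 at 1006, 1002 and 987 CPM and VS-4718 at 989.6, 997 and 1024 CPM. No PROTAC FAK degrader 1 library overlapped any other group, and among neighbours in the order of levels only VS-4718 with GSK215 and IN10018 with GSK2256098 overlapped. The log2 difference from DMSO was 0.64 ± 0.03 (SE) in PROTAC FAK degrader 1 (edgeR adjusted p = 1.84e-21) and -0.64 ± 0.03 in BSJ-04-0146 (edgeR adjusted p = 1.05e-20). It was -0.44 in VS-4718 and -0.45 in GSK215, and smaller in GSK2256098 (-0.22), IN10018 (-0.16) and defactinib (-0.10, edgeR adjusted p = 0.0123). The defactinib call was lost without DMSO replicate 1, where the difference was -0.09 (edgeR adjusted p = 0.0591).

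*Hsp90b1*, which encodes the ER paralogue of HSP90 known as GRP94 (chr10:86690209-86705509, minus strand), did not pass the test in PROTAC FAK degrader 1. The DMSO libraries read 1469, 1424 and 1424 CPM and the PROTAC FAK degrader 1 libraries 1460.3, 1490.3 and 1417 CPM, so that the groups overlapped. The log2 difference was 0.02 (95% interval -0.04 to 0.08, edgeR adjusted p = 0.64), and with library totals as the scaling it passed at 0.10 (edgeR adjusted p = 0.00332). It fell in BSJ-04-0146 (-0.46 ± 0.03), VS-4718 (-0.28 ± 0.03) and GSK215 (-0.22 ± 0.03), and did not pass the test in the other kinase inhibitors, though the difference in GSK2256098 (-0.06) passed when only the 6 libraries were fitted (-0.06, edgeR adjusted p = 0.0456). The ratio of *Hspa5* to *Hsp90b1* counts within a library, which needs no scaling, had a median of 0.945 in DMSO and 1.45 in PROTAC FAK degrader 1, and lay between 0.788 and 0.923 in every library of the other 6 drugs. The antisense pseudogene *1810014B01Rik* and the same-strand transcripts *Gm15344* and *Gm25745* overlap 632 exonic bases of *Hsp90b1*. Reads over the pseudogene cannot be assigned without the strand setting of the counting, and strand cannot separate reads over the same-strand transcripts.

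*Calr* encodes calreticulin, the soluble lectin that binds glycoproteins during folding and buffers calcium (chr8:84841850-84846934, minus strand), and a pseudogene matches it over 495 bases at 92.5% identity. Its largest change was a fall in PROTAC FAK degrader 1. The DMSO libraries read 1082, 1027 and 1079 CPM, and the PROTAC FAK degrader 1 libraries read 702, 665 and 666 CPM. The highest libraries were those of defactinib (1208, 1215 and 1218 CPM) and GSK215 (1211, 1203 and 1188 CPM). The fall was -0.65 ± 0.03 (edgeR adjusted p = 4.26e-22), with a smaller fall in IN10018 of -0.16 ± 0.03. The rises were 0.19 in defactinib (edgeR adjusted p = 2.68e-06) and 0.18 in GSK215 (edgeR adjusted p = 1.41e-06). Counts of *Hspa5* and *Calr* in the same library thus parted, with a median ratio of 1.28 in DMSO, 3.09 in PROTAC FAK degrader 1 and 0.83 in BSJ-04-0146. With library totals as the scaling, the *Calr* difference in BSJ-04-0146 turned from -0.004 to 0.10 (edgeR adjusted p = 0.000859), and those in VS-4718 (0.07, edgeR adjusted p = 0.0337) and GSK2256098 (0.08, edgeR adjusted p = 0.0416) passed the test, as they did not with TMM.

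*Pdia4*, which encodes the disulfide isomerase ERp72 (chr6:47796141-47813430, minus strand), varied little, from a group mean of 195 CPM in VS-4718 to 251 CPM in defactinib. The defactinib libraries read 244, 250.3 and 259 CPM against 213, 209 and 214 CPM in DMSO. It rose in defactinib (0.24 ± 0.03), GSK215 (0.20 ± 0.03) and PROTAC FAK degrader 1 (0.13 ± 0.03), and fell in VS-4718 (-0.12 ± 0.03). In each of these 4 comparisons the libraries did not overlap. In IN10018, where all libraries also lay below DMSO, the difference of -0.09 did not pass (edgeR adjusted p = 0.0645), while it passed in DESeq2 (-0.09, adjusted p = 0.0472) and when only the 6 libraries were fitted (-0.09, edgeR adjusted p = 0.018).

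*Sdf2l1*, whose product works with BiP to keep proteins soluble (chr16:17130138-17132383, minus strand), fell in 4 drugs and rose in none. The DMSO libraries read 75.3, 71.0 and 73.5 CPM, and those of BSJ-04-0146 read 45.0, 46.1 and 42.7 CPM. The log2 difference was -0.71 ± 0.05 in BSJ-04-0146, -0.58 ± 0.05 in GSK215 and -0.39 ± 0.05 in VS-4718. In PROTAC FAK degrader 1, where *Hspa5* rose, *Sdf2l1* fell by 0.15 on the log2 scale (edgeR adjusted p = 0.00391), a call lost when library totals were the scaling (-0.07, edgeR adjusted p = 0.17). *Creld2*, an ER protein with disulfide isomerase activity (chr15:88819646-88826683, plus strand), fell in BSJ-04-0146 (-0.37 ± 0.04), GSK215 (-0.27 ± 0.04) and IN10018 (-0.14 ± 0.04). The IN10018 call was lost without IN10018 replicate 1 (-0.13, edgeR adjusted p = 0.0586). In PROTAC FAK degrader 1 *Creld2* gave -0.06 (95% interval -0.14 to 0.02).

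*Manf* encodes a secreted stress-induced factor that binds BiP (chr9:106838312-106891979, minus strand), and 326 of its exonic bases overlap other genes. Its groups spanned only 1.34-fold, from 130 CPM in BSJ-04-0146 to 174 CPM in PROTAC FAK degrader 1. The PROTAC FAK degrader 1 libraries read 179, 178 and 165 CPM against 155, 142 and 148 CPM in DMSO, a rise of 0.23 ± 0.04 (edgeR adjusted p = 4.17e-06). The fall of 0.19 in BSJ-04-0146 was lost with library totals as the scaling (-0.08, edgeR adjusted p = 0.083). The other *Manf* calls also rested on the choice of libraries or scaling. The rise in defactinib (0.12) was lost without DMSO replicate 2 (0.08), DMSO replicate 3 (0.12), defactinib replicate 2 (0.11) or defactinib replicate 3 (0.07), and with limma-trend (0.11). That in VS-4718 (0.12) was lost without DMSO replicate 2 (0.08), DMSO replicate 3 (0.11), VS-4718 replicate 1 (0.10) or VS-4718 replicate 2 (0.09). The rise in GSK2256098 (0.14) was lost without DMSO replicate 2 (0.10), DMSO replicate 3 (0.13), GSK2256098 replicate 2 (0.11) or GSK2256098 replicate 3 (0.13). The fall of 0.14 in GSK215 was lost without DMSO replicate 1 (-0.11) or GSK215 replicate 3 (-0.11), and with library totals as the scaling (-0.01).

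*Dnajb9*, which encodes ERdj4, a J-domain cochaperone of BiP (chr12:44205559-44210326, minus strand), was the least abundant gene of the group. It rose in all 3 PROTACs and passed the test in none of the 4 kinase inhibitors. The DMSO libraries read 11.3, 10.5 and 11.7 CPM and those of PROTAC FAK degrader 1 read 15.5, 15.4 and 14.4 CPM. The GSK215 libraries read 16.1, 13.4 and 14.6 CPM, again all above DMSO. The log2 difference was 0.44 ± 0.09 in PROTAC FAK degrader 1, 0.39 ± 0.09 in GSK215 and 0.26 ± 0.09 in BSJ-04-0146. The last was lost without DMSO replicate 2 (0.22, edgeR adjusted p = 0.0634). A transcript annotated as *Gm6568* matches *Dnajb9* over 697 bases at 93.3% identity, so that the assignment of some reads is uncertain.

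*Herpud1* encodes a membrane protein that organises the ER-associated degradation complex (chr8:94386438-94395377, plus strand), and it had the widest range of the 10 genes, 6.36-fold between group means. The DMSO libraries read 38.9, 36.1 and 38.0 CPM. The PROTAC FAK degrader 1 libraries read 94.3, 97.0 and 87.7 CPM, and the IN10018 libraries 44.9, 44.1 and 46.8 CPM. The libraries of VS-4718 read 15.4, 13.9 and 15.4 CPM, those of GSK215 15.8, 15.1 and 16.0 CPM, and those of BSJ-04-0146 14.7, 14.6 and 14.5 CPM. *Herpud1* thus stood above DMSO in 2 drugs and below it in 4, each without overlap, and only defactinib overlapped DMSO. The log2 difference was 1.31 ± 0.04 in PROTAC FAK degrader 1 (edgeR adjusted p = 7.53e-26) and 0.27 ± 0.05 in IN10018 (edgeR adjusted p = 0.000114). It was -1.36 ± 0.06 in BSJ-04-0146, -1.34 ± 0.05 in VS-4718, -1.27 ± 0.06 in GSK215 and -0.59 ± 0.05 in GSK2256098. In the order of levels, the libraries of VS-4718 overlapped those of GSK215 and those of BSJ-04-0146, while every GSK215 library lay above every BSJ-04-0146 library.

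*Xbp1* itself (chr11:5520659-5525893, plus strand) encodes the transcription factor, and its gene-level count holds spliced and unspliced transcripts together, so splicing could not be read from these data. The PROTAC FAK degrader 1 libraries read 67.4, 66.8 and 67.4 CPM, against 37.5, 34.4 and 34.5 CPM in DMSO. The IN10018 libraries read 44.1, 43.4 and 44.0 CPM, also above every DMSO library. BSJ-04-0146 gave the lowest libraries, 28.2, 28.2 and 28.5 CPM. The rise was 0.92 ± 0.04 in PROTAC FAK degrader 1 (edgeR adjusted p = 2.29e-21) and 0.31 ± 0.05 in IN10018 (edgeR adjusted p = 5.7e-06). The fall was -0.32 ± 0.05 in BSJ-04-0146 and -0.23 ± 0.05 in VS-4718. GSK215 gave -0.06 (95% interval -0.16 to 0.04), while its *Herpud1* libraries overlapped those of VS-4718.

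**Figure D3:**
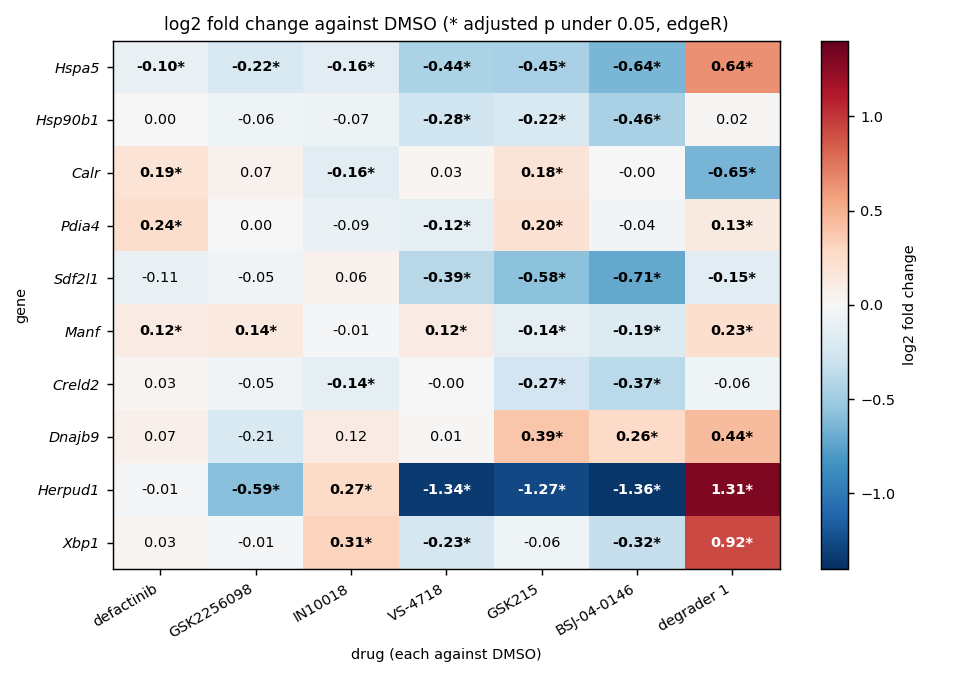
Log2 fold change of each of the 10 genes (rows) in each of the 7 drugs against DMSO (columns; degrader 1 is PROTAC FAK degrader 1), in red where higher and blue where lower, with an asterisk where the edgeR adjusted p was under 0.05. *Herpud1* runs from -1.36 in BSJ-04-0146 to 1.31 in PROTAC FAK degrader 1, and *Calr* is at -0.65 in PROTAC FAK degrader 1.

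Counted by drug, each treatment had members past the threshold in both directions. The only call in one of the directions was lost when some single library was left out in VS-4718 and GSK2256098 (*Manf*), in defactinib (*Hspa5*) and in BSJ-04-0146 (*Dnajb9*), as given above for each gene. In PROTAC FAK degrader 1, 6 members rose and 2 fell, where 34.1% and 32.7% of all tested genes did so. BSJ-04-0146 gave 1 higher and 7 lower (27.7% and 26.9% of all genes), and GSK215 gave 3 higher and 6 lower (27.4% and 27.2%). VS-4718 gave 1 higher and 6 lower (20.4% and 18.9%). Defactinib gave 3 higher and 1 lower (11.4% and 11%), IN10018 gave 2 higher and 3 lower (6.44% and 6.85%), and GSK2256098 gave 1 higher and 2 lower (6.36% and 6.09%). The median log2 difference of the members was 0.18 in PROTAC FAK degrader 1, -0.35 in BSJ-04-0146 and -0.18 in both GSK215 and VS-4718, where the medians of all genes were 0.00, 0.02, 0.02 and 0.00. With library totals as the scaling, the median of all genes moved to 0.14 in GSK215 and 0.13 in BSJ-04-0146. Calls over all genes then split into 6190 higher and 2867 lower in GSK215 (4407 and 4379 with TMM), 6018 and 2966 in BSJ-04-0146 (4451 and 4320), and 4015 and 2394 in VS-4718 (3273 and 3030).

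The 3 PROTACs were compared as a class with the 4 kinase inhibitors. Class and dose cannot be told apart here, since every kinase inhibitor was given at 1 μM whereas GSK215 and BSJ-04-0146 were given at 0.1 μM. Of the members, 4 were higher and 5 lower in the PROTACs, where 34% and 32.6% of all genes were. In none of the 9 did the libraries of the classes separate. The largest of these differences were those of *Dnajb9* (0.37 ± 0.05, edgeR adjusted p = 9.14e-09) and *Sdf2l1* (-0.36 ± 0.03, edgeR adjusted p = 3.68e-15). *Herpud1*, at -0.03 (95% interval -0.09 to 0.04), combined PROTACs at 93.0, 15.6 and 14.6 CPM with kinase inhibitors from 14.9 to 45.2 CPM, so that drugs within a class differed by more than the classes. The class calls of *Hsp90b1* (-0.12) and *Manf* (-0.12) were lost with library totals as the scaling (-0.03 and -0.04). Calls over all genes in this comparison split into 5456 higher and 5241 lower with TMM and into 7094 and 3808 with library totals.

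Of 11 pairs of drugs at the same dose and time, 6 were compared, and the other 5, all between kinase inhibitors, were not tested. PROTAC FAK degrader 1 differed from defactinib in 8 members, where 68.9% of all genes differed. *Herpud1* was higher by 1.32 ± 0.04 (edgeR adjusted p = 6.02e-26), *Xbp1* by 0.89 ± 0.04 and *Hspa5* by 0.74 ± 0.03. *Calr* was lower in PROTAC FAK degrader 1 than in defactinib, with a log2 difference of -0.84 ± 0.03 (edgeR adjusted p = 9.53e-26). *Hsp90b1*, at 0.01 (95% interval -0.05 to 0.07), and *Sdf2l1*, at -0.04 (95% interval -0.14 to 0.05), did not pass, though *Hsp90b1* passed with library totals as the scaling (0.08, edgeR adjusted p = 0.0204). *Creld2*, at -0.09, lost its call without defactinib replicate 1 (-0.08), defactinib replicate 2 (-0.08) or any 1 of the PROTAC FAK degrader 1 libraries (from -0.10 to -0.08), and in DESeq2 (-0.09) and without the filter (-0.09). *Manf*, at 0.12, lost it without defactinib replicate 1 (0.07), and *Pdia4* (-0.12) and *Creld2* lost theirs with library totals as the scaling (-0.05 and -0.03).

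PROTAC FAK degrader 1 differed from VS-4718 in 9 members (68.9% of all genes), with the widest gap of any pair at *Herpud1*, 2.64 ± 0.05 (edgeR adjusted p = 4.18e-34). *Xbp1* differed by 1.16 and *Hspa5* by 1.09, and *Creld2* by -0.06 (95% interval -0.14 to 0.02). Against GSK2256098 it differed in 8 members (67.6%) and against IN10018 in 9 (63.5%). *Creld2* against IN10018, at 0.08, passed only with library totals as the scaling (0.15, edgeR adjusted p = 0.000855), and *Sdf2l1* against GSK2256098, at -0.10, only when the 6 libraries alone were fitted (-0.10, edgeR adjusted p = 0.0227). Against GSK2256098 and IN10018, the *Herpud1* difference was 1.89 ± 0.05 and 1.04 ± 0.04, and that of *Calr* was -0.71 ± 0.03 and -0.49 ± 0.03. The *Hsp90b1* differences, 0.08 in each, lost their call without PROTAC FAK degrader 1 replicate 2 (0.07 in each), and against IN10018 also without IN10018 replicate 3 (0.07) and without the filter (0.08). *Manf* lost its call against VS-4718 without VS-4718 replicate 3 (0.10), and against GSK2256098 without GSK2256098 replicate 1 (0.08) or PROTAC FAK degrader 1 replicates 1 or 2 (0.09 in each). *Dnajb9* was higher in PROTAC FAK degrader 1 than in defactinib (0.37), VS-4718 (0.43), GSK2256098 (0.65) and IN10018 (0.32). *Sdf2l1* was higher in PROTAC FAK degrader 1 than in VS-4718 (0.24) and lower than in IN10018 (-0.21).

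Among the kinase inhibitors, the pair tested was VS-4718 and defactinib. VS-4718 was lower than defactinib in 7 members and higher in none. Of all 16070 genes, 34% differed, 2892 being higher and 2568 lower in VS-4718. *Herpud1* gave -1.32 ± 0.05 (edgeR adjusted p = 1.13e-21), *Pdia4* -0.37 ± 0.03 and *Hspa5* -0.34 ± 0.03. *Manf* did not differ beyond its error, at 0.00 (95% interval -0.08 to 0.08). The PROTACs GSK215 and BSJ-04-0146, both at 0.1 μM, differed in 5 members, all higher in GSK215. Of all genes, 22.5% differed, 1588 being higher and 2027 lower in GSK215. The differences of the 5 members were small, from 0.18 for *Calr* and *Hspa5* to 0.26 for *Xbp1* (edgeR adjusted p = 0.000181). *Herpud1*, at 0.10 (95% interval -0.05 to 0.24), did not pass. When p-values were adjusted over the genes of all 6 pairs together, the calls held and *Sdf2l1* (0.14, edgeR adjusted p = 0.025) and *Creld2* (0.10, edgeR adjusted p = 0.045) joined them between GSK215 and BSJ-04-0146. *Sdf2l1* also passed there in DESeq2, in limma-trend, without the filter, with library totals and when only these 6 libraries were fitted. *Creld2* also passed there with library totals as the scaling (0.11, edgeR adjusted p = 0.0458).

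**Figure D4:**
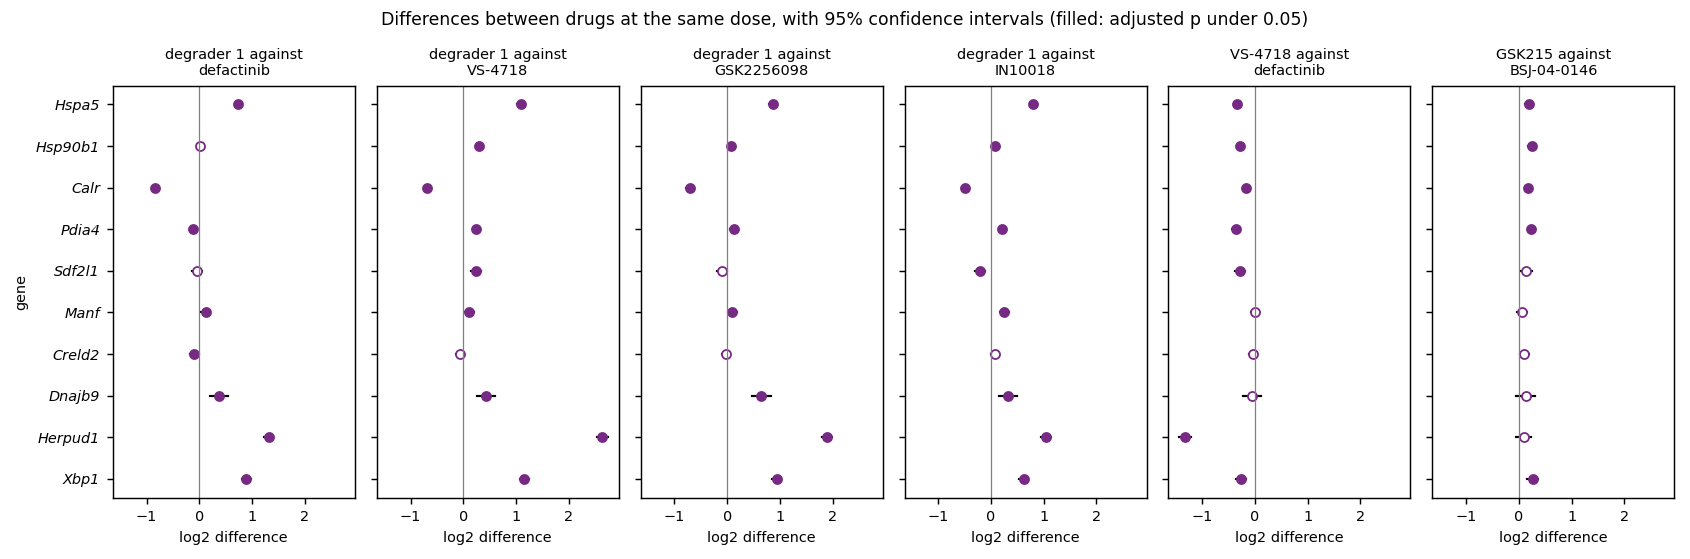
Log2 difference of each of the 10 genes (rows) between drugs used at the same dose, 1 panel per pair, with 95% confidence intervals from edgeR and filled points where the adjusted p was under 0.05; degrader 1 is PROTAC FAK degrader 1. *Calr* lies left of 0 and *Herpud1*, *Xbp1* and *Hspa5* lie right of it in all 4 comparisons of PROTAC FAK degrader 1.

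GSK215 at 0.1 μM and VS-4718 at 1 μM differ in dose and were not compared by a test. Their group means stood side by side at 15.6 and 14.9 CPM for *Herpud1*, 998 and 1003 CPM for *Hspa5*, and 1239 and 1187 CPM for *Hsp90b1*. For *Calr* they were 1201 and 1085 CPM, and for *Creld2* 60.8 and 73.3 CPM. *Pdia4*, at 244 and 195 CPM, was higher than DMSO in GSK215 and lower in VS-4718, and *Manf*, at 135 and 161 CPM, was lower in GSK215 and higher in VS-4718, with the limits on its calls given above.

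Other genes of the pathway were taken from 6 lists. In the list of 12 genes of the PERK, ATF4 and CHOP branch, all 12 rose in PROTAC FAK degrader 1, with a median log2 difference of 1.45 where that of all genes was 0.00. *Ddit3*, which encodes CHOP, rose from 19.7 to 237.5 CPM (3.59 ± 0.05, edgeR adjusted p = 5.94e-37), and the smallest rise was that of the serine synthesis gene *Psat1* (0.23 ± 0.03). In IN10018, the other drug in which *Herpud1* and *Xbp1* rose, 10 of the 12 rose and none fell (median 0.36). In VS-4718, GSK2256098 and BSJ-04-0146, 11 fell and none rose, with medians of -0.95, -0.53 and -0.95. In GSK215, 11 fell and 1 rose (median -1.13), *Cebpb* being the exception at 0.52. *Chac1*, which encodes an enzyme that degrades glutathione, fell furthest in GSK215 (-3.07 ± 0.11), BSJ-04-0146 (-2.90 ± 0.10) and VS-4718 (-2.83 ± 0.09), from 23.4 CPM to 2.75, 3.12 and 3.30 CPM. *Atf4*, named after its values were seen because it heads the branch, gave 0.88 in PROTAC FAK degrader 1, 0.14 in IN10018 and -1.16 in GSK215. Defactinib, in which *Herpud1* and *Xbp1* did not pass the test, gave 4 higher and 7 lower, against 11.4% and 11% of all genes. *Xbp1* also did not pass in GSK2256098 (-0.01) or GSK215 (-0.06), where 11 genes of this list fell. For these lists too, the shares of all tested genes given above for each drug are the background: 34.1% higher in PROTAC FAK degrader 1, 6.44% higher in IN10018, and 18.9%, 6.09%, 26.9% and 27.2% lower in VS-4718, GSK2256098, BSJ-04-0146 and GSK215.

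The ER lists did not move as one, and their counts stand beside 34.1% higher and 32.7% lower of all genes in PROTAC FAK degrader 1, 27.7% and 26.9% in BSJ-04-0146, 27.4% and 27.2% in GSK215, and 11.4% and 11% in defactinib. Among 21 other folding enzymes and cochaperones, 4 rose and 15 fell in PROTAC FAK degrader 1 (median -0.29). The thiol oxidase gene *Ero1l* rose there from 322.5 to 1113 CPM (1.79 ± 0.03), while the BiP cochaperone gene *Dnajb11* fell from 111 to 53.2 CPM (-1.06 ± 0.04). *Ero1l* was also the gene of this list that fell furthest in BSJ-04-0146 (-1.39), GSK215 (-1.32) and VS-4718 (-1.18). The same list gave 14 higher and 2 lower in defactinib (median 0.16) and 2 higher and 12 lower in BSJ-04-0146 (median -0.21). In IN10018, where *Herpud1*, *Xbp1* and 10 genes of the PERK list rose, 1 gene of the folding list rose and 9 fell (median -0.09), against 6.44% and 6.85% of all genes. Of 19 genes of protein translocation and early secretion, 15 fell and 1 rose in PROTAC FAK degrader 1 (median -0.29), the rise being *Sec24d* (0.40) and the largest fall *Srprb* (-0.84), which encodes a subunit of the signal recognition particle receptor. In GSK215 12 of these fell, with *Sec62* the 1 that rose (0.43), and in BSJ-04-0146 10 fell and 2 rose. In IN10018 7 fell and none rose (median -0.09), with 11 past the threshold when only the 6 libraries were fitted. Defactinib gave the opposite, 9 higher and 1 lower (median 0.07), a total of 10 past the threshold that was 6 without the filter on low counts.

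Of 17 genes of ER-associated degradation, 11 rose and 4 fell in PROTAC FAK degrader 1 (median 0.21), against 34.1% and 32.7% of all genes. *Sel1l*, the adaptor of the HRD1 ubiquitin ligase, rose from 108 to 215 CPM (0.99 ± 0.03), and *Nploc4* fell (-0.54). In GSK215, where 27.4% of all genes rose and 27.2% fell, 9 rose and 5 fell, the count of falls being near the background, with *Erlec1* highest (0.54) and *Nploc4* lowest (-0.39). Defactinib gave 8 higher and 2 lower (11.4% and 11% of all genes), and VS-4718 8 and 3 (20.4% and 18.9%). BSJ-04-0146 gave 4 higher and 5 lower (27.7% and 26.9%), GSK2256098 3 and 0 (6.36% and 6.09%), and IN10018 0 and 2 (6.44% and 6.85%). Of 10 sensors and their proteases, 7 rose and 2 fell in PROTAC FAK degrader 1, with *Wfs1* at 1.07 ± 0.05 and *Atf6b* at -0.77 ± 0.05. GSK215 and BSJ-04-0146 raised *Creb3l2* (0.83 and 0.64) and lowered *Mbtps2*, which encodes the site-2 protease that cleaves ATF6 (-0.39 and -0.53). Outside the ER, 9 of 12 cytosolic and mitochondrial chaperone genes fell and 2 rose in PROTAC FAK degrader 1 (median -0.50), *Hsph1* furthest (-1.81 ± 0.03). *Hspd1*, the mitochondrial HSP60, fell furthest in BSJ-04-0146 (-1.01), GSK215 (-0.92) and VS-4718 (-0.64). *Hspa1a* rose in these 3 drugs, from 1.42 CPM to between 2.73 and 3.95 CPM.

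**Figure D5:**
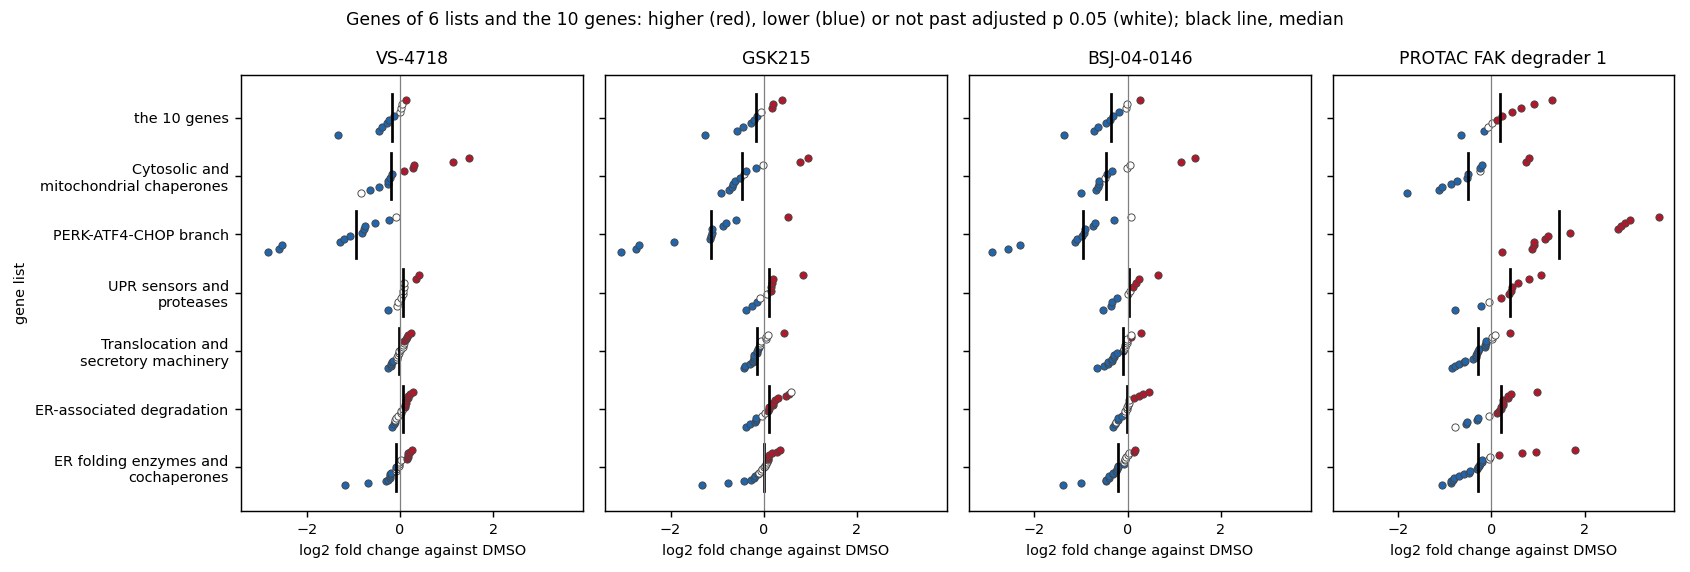
Log2 fold change against DMSO of the genes of 6 lists and of the 10 genes (rows) in 4 drugs (panels), coloured red where higher, blue where lower and white where the edgeR adjusted p was not under 0.05, with the median as a black line. All 12 genes of the PERK-ATF4-CHOP list are higher in PROTAC FAK degrader 1, and 11 are lower in each of the other 3 drugs shown.

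Across the 8 group means of log2 CPM, *Herpud1* and *Hspa5* had a Pearson correlation of 0.95, *Hspa5* and *Xbp1* of 0.93, and *Herpud1* and *Xbp1* of 0.92. *Calr* ran opposite to *Xbp1* (-0.86) and *Hspa5* (-0.78), and *Dnajb9* was opposed to *Creld2* (-0.55). These are descriptions over 8 points in which PROTAC FAK degrader 1 is the extreme for several genes. The tested genes most like *Hspa5* were *Rnf138*, *Rpap2*, *Inpp5b*, *Rbms2* and *Reps1*, with correlations from 0.986 to 0.996. Those most like *Xbp1* were *Paip1*, *Clcn3*, *Dubr*, *Hoxb9* and *Arid5a* (from 0.98 to 0.984), of which *Arid5a* went from 14.6 CPM in DMSO to 34.0 in PROTAC FAK degrader 1 and 11.5 in GSK215. Those most like the mean of the 10 genes were *Gm43314*, *Zfp131*, *Snhg1*, *0610030E20Rik* and *Sp1* (from 0.978 to 0.992). Together the 10 genes took between 0.426% and 0.438% of all counts in DMSO, between 0.501% and 0.518% in PROTAC FAK degrader 1, and between 0.36% and 0.365% in BSJ-04-0146. These shares rested mainly on 3 genes. In DMSO replicate 1, *Hspa5*, *Hsp90b1* and *Calr* gave 30694, 32476 and 23925 of 100469 member counts. In PROTAC FAK degrader 1 replicate 1 they gave 47233, 31786 and 15278 of 109977, so the higher share there was no joint rise.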

How the data were processed

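Poly(A) RNA of 24 MS03 cultures was sequenced. Per the labels and the submitters' processing notes, the authors trimmed reads with Trimmomatic 0.36, aligned them to GRCm38 with STAR 2.5.2b and counted them with featureCounts of Subread 1.5.2; the deposited values are raw gene counts, and the annotation release and strand setting are not given in the sources used here. The replicates are labelled as biological. All tests used edgeR 4.0.16 under R 4.3.3 (filterByExpr by group, TMM, quasi-likelihood F test, 1 model of 8 groups with 16 residual degrees of freedom, two-sided) and Benjamini-Hochberg adjustment over 16070 genes, with a threshold of 0.05. SE is the log2 difference over the square root of F. The script was tested on simulated data. Alternatives were DESeq2 1.42.0, library totals alone, RLE factors, limma-trend (limma 3.58.1) on log2(CPM + 4), no filter, a replicate block, the 6 libraries of a comparison alone, and leaving out each replicate; the study's own methods used log2(CPM + 4).

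The members, the gene lists and the markers were chosen with earlier results of these data known. Named list genes were those with the highest and the lowest log2 fold change past the threshold in PROTAC FAK degrader 1, GSK215, BSJ-04-0146 and VS-4718, and the like genes were the 5 with the highest Pearson correlation. Coordinates and exon lengths came from GENCODE M21 (GRCm38), and promoter sequences from RefSeq (GRCm38.p6). Depth limits precision mainly for *Dnajb9*, whose SE was the largest of the members.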

Additional observations from a re-analysis of the deposited data

Results flagged for a closer look

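Of 11 pairs of drugs at the same dose, 6 were tested against each other. In 10 results from these pairs, a member moved one way past the threshold with one drug and the opposite way with another at the same dose, and the difference between the drugs itself passed the edgeR test. Between PROTAC FAK degrader 1 and each kinase inhibitor, 63.5% to 68.9% of all genes differed. How many of all genes moved in opposite ways was not counted, so the 10 cannot be called unusual for these genes. *Hspa5* rose in PROTAC FAK degrader 1 and fell in each kinase inhibitor, with differences of 0.74 from defactinib, 1.09 from VS-4718, 0.86 from GSK2256098 and 0.80 from IN10018. The call of the fall in defactinib was lost without DMSO replicate 1. *Herpud1* rose in PROTAC FAK degrader 1 and fell in VS-4718 (a difference of 2.64) and in GSK2256098 (1.89). *Xbp1* rose in PROTAC FAK degrader 1 and fell in VS-4718 (1.16), as *Pdia4* did on a smaller scale (0.25). *Calr* fell in PROTAC FAK degrader 1 and rose in defactinib (-0.84). Between kinase inhibitors, *Pdia4* fell in VS-4718 and rose in defactinib (-0.37). In the 5 pairs without a test, 6 results had every library of one drug above DMSO and every library of the other below it, and these differences were not tested. The share of all genes with this pattern was not counted either. Separation from DMSO was common, at 7 of 10 members in both IN10018 and GSK2256098, where 5 and 3 passed the test. *Herpud1* was higher in IN10018 than in VS-4718 by 1.60 and than in GSK2256098 by 0.85, and *Xbp1* was higher in IN10018 than in VS-4718 by 0.54. In IN10018 minus defactinib, *Calr* gave -0.35 and *Pdia4* -0.33, and in IN10018 minus GSK2256098 *Calr* gave -0.22. In the last 2 of these 6, *Pdia4* in IN10018 and *Calr* in GSK2256098 did not pass the edgeR test against DMSO.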

How the results depend on the processing

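Of 140 member results, 99 passed the threshold. The shares of all genes called ran from 6.36% higher and 6.09% lower in GSK2256098 to 68.9% in either direction between PROTAC FAK degrader 1 and defactinib. None of the 99 changed sign under any alternative. When a library was left out, 13 lost their call, and these are named beside each result. The number of members past the threshold stayed within 1.5 times its main value under every alternative. Of 41 results not past the threshold, 19 changed sign somewhere, and the cause was not tested. With DESeq2, the log2 difference of *Pdia4* in GSK2256098 was -0.0023 and that of *Manf* between VS-4718 and defactinib -0.0044; with RLE factors they were -0.0024 and -0.0047, and without the filter -0.00090 and -3.2e-05, where *Hsp90b1* in defactinib was -0.0011. The *Manf* value was -0.00035 with a replicate block and -0.0017 in its 6 libraries alone. With library totals alone, the values were 0.0056 for *Herpud1* in defactinib, 0.035 for *Creld2* in VS-4718, 0.00027 for *Xbp1* in GSK2256098, 0.0198 for *Creld2* in PROTAC FAK degrader 1, 0.062 for *Xbp1* in GSK215, 0.072 for *Pdia4* and 0.10 for *Calr* in BSJ-04-0146, 0.0599 for *Herpud1* in PROTACs against kinase inhibitors (0.015 with limma-trend), and, for PROTAC FAK degrader 1, 0.022 for *Sdf2l1* against defactinib and 0.052 for *Creld2* against GSK2256098. Leaving out 1 library gave, in defactinib, -0.0102 to 0.016 for *Hsp90b1*, -0.029 to 0.13 for *Dnajb9* and -0.043 to 0.0072 for *Herpud1*. In VS-4718 it gave -0.0025 to 0.037 for *Calr*, -0.052 to 0.011 for *Creld2* and -0.058 to 0.051 for *Dnajb9*. In GSK2256098 it gave -0.024 to 0.012 for *Pdia4* and -0.059 to 0.023 for *Xbp1*, in IN10018 -0.045 to 0.016 for *Manf*, and in BSJ-04-0146 -0.0301 to 0.0086 for *Calr*. For VS-4718 against defactinib it gave -0.057 to 0.0401 for *Manf* and -0.13 to 0.0303 for *Dnajb9*, and for *Hsp90b1* in PROTAC FAK degrader 1 against defactinib -2.7e-05 to 0.038. Counts over all genes fell from 2136 to 1380 in IN10018 without DMSO replicate 2 and to 1395 without IN10018 replicate 3, and from 2001 to 1298 in GSK2256098 without GSK2256098 replicate 3.

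Replicates shared only a number across groups: same-numbered drug and DMSO libraries had correlations of deviations from -0.17 to 0.10, and 5 of 21 drug libraries correlated best with the DMSO library of their own number. The replicate block changed no call of a member, and the one sign it changed is given above.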
